A study of Rattus norvegicus with 8 samples.

Results

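The genes of the cytosolic ribosomal proteins were followed in brain tissue of male Wistar rats that received candesartan or saline ahead of a transient stroke. Their probe sets were picked by platform symbol. A probe set counted where it carried 1 symbol of the form Rpl or Rps with a number, Rplp0 to Rplp2 or Rpsa. The Rps6k kinases (5 genes) and symbols of pseudogenes were left out, and each gene was represented by its brightest probe set on average. This gave 44 genes of 10411 on the array, from 50 probe sets, and 40 of them passed the filter on low signal. By role they were 12 proteins of the 40S subunit, 27 of the 60S subunit, Rplp0 of the 60S stalk, and 4 paralogs or like genes (Rpl3l, Rpl7l1, Rps27l and Rps4y2). A further 29 ribosomal protein names, among them Rpl10, Rps2 and Rps19, occurred only on probe sets with several symbols and were not members.

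All rats were 7 weeks old and weighed 160 to 200 g, and the labels named no genotype beyond the strain. The 4 groups were sham vehicle (sham surgery after 5 days of saline), MCAO vehicle (occlusion of the right middle cerebral artery for 90 min with reperfusion, after 5 days of saline), sham candesartan (sham surgery after 5 days of candesartan at 0.1 mg/kg) and MCAO candesartan (the same occlusion after candesartan). Candesartan blocks the angiotensin AT1 receptor. RNA came from a segment of the right hemisphere 2 h after surgery, and each Affymetrix RAE 230A array held RNA pooled from 2 rats. Each group had 2 independent pools. The treatment text of MCAO candesartan 2 stated no pretreatment, so that array took its group from its source name. In such bulk tissue, fewer cells of a type and less RNA per cell cannot be told apart.

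The ribosome translates mRNA with a small 40S subunit that decodes and a large 60S subunit that forms peptide bonds, each built from ribosomal RNA and single copies of most of its proteins. The mRNAs of these proteins mostly begin with a run of pyrimidines at the 5′ end, the 5′ terminal oligopyrimidine tract, through which mTOR signalling controls their translation. Neurons and glia make them at high levels, and free ribosomal proteins such as Rpl5 and Rpl11 can bind Mdm2 and stabilise p53 when ribosome assembly is disturbed.

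The starts of 8 of these genes are shown because their signals are described in detail, and and because most genes of the family have a pyrimidine run near the start. Each stretch holds 60 bases before the annotated start and the first 20 transcribed bases, 5′ to 3′ on the gene's strand, from RefSeq (GRCr8). Capitals mark the longest run of C and T in the stretch.
Rps16, chr1:92770598-92770677, + strand: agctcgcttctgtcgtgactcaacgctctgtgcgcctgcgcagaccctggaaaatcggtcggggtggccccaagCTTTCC
Rps23, chr2:23814457-23814536, + strand: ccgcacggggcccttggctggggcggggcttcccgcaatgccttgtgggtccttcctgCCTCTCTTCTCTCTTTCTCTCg
Rps24, chr16:96457-96536, + strand: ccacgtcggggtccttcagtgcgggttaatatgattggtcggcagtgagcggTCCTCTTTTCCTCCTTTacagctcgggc
Rpl35, chr3:43165902-43165981, - strand: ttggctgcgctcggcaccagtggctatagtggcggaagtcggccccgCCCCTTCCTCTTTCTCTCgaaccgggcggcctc
Rplp0, chr12:46718371-46718450, - strand: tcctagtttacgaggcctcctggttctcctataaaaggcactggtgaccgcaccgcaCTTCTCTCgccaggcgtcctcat
Rpl6, chr12:41011671-41011750, - strand: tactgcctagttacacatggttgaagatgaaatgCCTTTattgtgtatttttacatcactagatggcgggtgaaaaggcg
Rpl21, chr12:13386134-13386213, - strand: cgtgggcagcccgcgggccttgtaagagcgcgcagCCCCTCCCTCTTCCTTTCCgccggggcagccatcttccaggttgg
Rpl24, chr11:58128386-58128465, - strand: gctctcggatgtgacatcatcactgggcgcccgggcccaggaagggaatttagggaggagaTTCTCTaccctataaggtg
The runs differ in length and place: that of Rps23 holds 21 bases and spans the start, that of Rplp0 holds 8 and also spans it, and that of Rpl21 holds 19 and lies before it. Rpl6 has no run over 5 bases in the stretch. The runs of Rps16 and Rpl24 hold 6 bases there, after the start, and that of Rps16 is cut by the end of the stretch. Within 30 bases either side of the start, the longest runs of Rps16 and Rpl24 hold 12 and 7 bases.

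Promoters were listed for 39 of the 44 genes among 33469 promoters. A run of at least 7 pyrimidines within 30 bases either side of the start occurred in 33 of the 39 (84.6%) and in 34.0% of all promoters. The 6 without one were Rpl3, Rpl6, Rpl11, Rpl41, Rpl7l1 and Rps27l. The first 5 transcribed bases were all C or T in 17 (43.6%), against 4.75% of all promoters. The letters CTTTCC stood on the transcribed strand within the same 60 bases in 10 (25.6%), against 2.59% of all promoters, and on either strand in 10, against 5.34%. Such a match overlaps the pyrimidine runs and is a description of the letters only. The longest run had a median of 10 bases in these genes and 5 in all promoters, and the median GC content was 54.7% and 51.7%.

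The family was bright on every array. Among all probe sets, 38 of the 44 genes had a mean signal above the 95th percentile, and the genes that passed the filter ranged from a mean signal of 2122.8 to 68558.1 with a median of 23140.4. Signal depends on the probes, so brightness does not order the mRNAs. The 3 brightest probe sets were those of Rps29, Rpl37a and Rps23. Rpl30 (197.5 to 644.3), Rpl3l (23.5 to 187.5), Rps27l (306.9 to 763.3) and Rps4y2 (57.0 to 558.9) stayed under the filter of 916 on every array, so they were not among the genes tested here. Fitted without the filter, limma called none of the 4 in any comparison. Rpl3l is a striated muscle paralog of Rpl3, and Rps27l a paralog of Rps27.

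MCAO candesartan 2 stood apart from the other arrays. The family's medians, some of its counts at an unadjusted p and the lists are also given without it. For the lists this alternative was added after the data were seen. Counts of groups that do not overlap rest on both arrays of each group and are not. It correlated with the rest at 0.959 on average, and each of those at 0.976 to 0.978. Its 3′ signals were 86549 for actin and 89798 for GAPDH, against 49177 to 55426 and 59812 to 69962 elsewhere. The 3′ probe set of its cre hybridisation spike, a bacteriophage transcript added to each sample, gave 147887, against 63896 to 106737. The 5′ probe set of cre gave 49973 there, within the 36746.5 to 60000.1 of the other arrays. The members' median signal was 30293 there and 22157 to 25039 on the other 7 arrays, and they made up 2.56% of its summed signal against 2.03% to 2.29%. The actin 3′ to 5′ ratio, a measure of RNA integrity, was 1.99 there and 1.57 to 2.03 elsewhere. Of the other 7 arrays, MCAO candesartan 1 had the highest 3′ GAPDH (69962), 3′ cre (106737), 5′ cre (60000.1) and members' median (25039). Its 3′ actin (49177) was the lowest. The 3′ cre signals of the rest were 63896 to 86287.5. A fit without MCAO candesartan 2 keeps MCAO candesartan 1. The part of these array differences in the results was not tested.

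**Figure D1:**
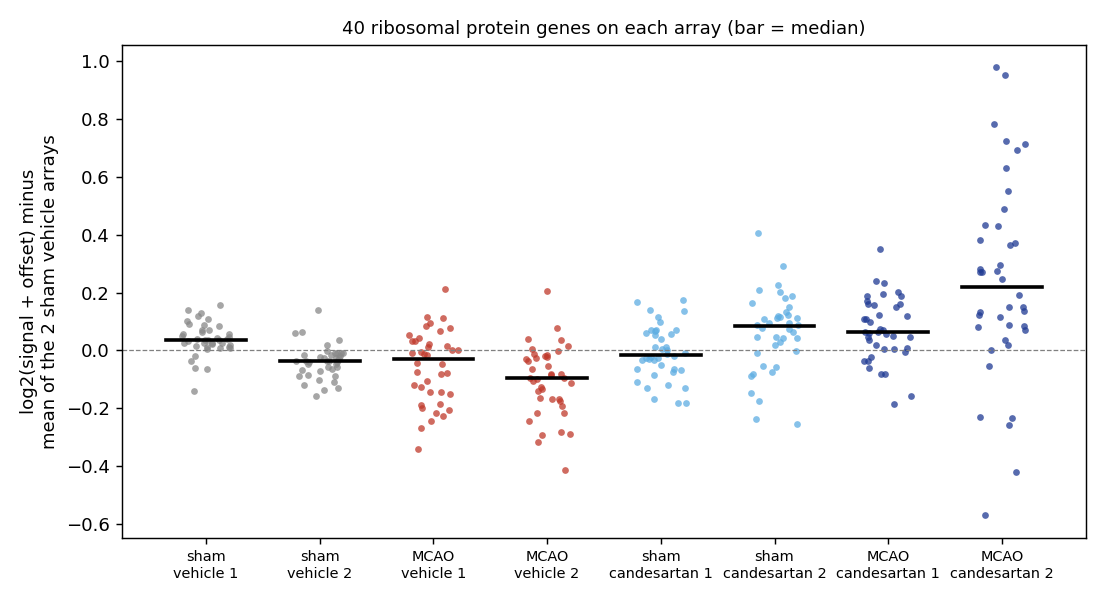
Each point is 1 of the 40 genes on 1 array, as log2(signal + 370) minus its mean over both sham vehicle arrays, with the bar at the median. The median lay at 0.2205 on MCAO candesartan 2 and between -0.097 and 0.0833 on the other arrays, at the deposited scaling.

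Of the 40 genes, 26 (65.0%) had their highest signal on MCAO candesartan 2, against 22.6% of all tested probe sets, and 4 had their lowest there, against 27.6% of all. The lowest signal fell on an MCAO vehicle array for 27 genes, 11 on pool 1 and 16 on pool 2. The share of all tested probe sets that were lowest there was not counted, so this does not set the family apart. Over the other 7 arrays, the highest signal was a median of 1.21 times the lowest, with a range of 1.08 to 1.5. Members of the family differed between the MCAO candesartan pools by a median of 0.2304 (log2, without sign), and between the pools of each other group by 0.0691 to 0.0906. Over all tested probe sets these medians were 0.2251 and 0.1253 to 0.1548. From MCAO candesartan 1 to 2 the genes differed by -0.49 (Rpl21) to 0.88 (Rps16), with 28 of 40 higher on the latter.

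Occlusion after vehicle went with slightly lower signals for most of the family, none of which passed the test. Of the 40 genes 0 were called at an adjusted p under 0.05 (limma, Benjamini-Hochberg), where 0.262% of all tested probe sets were called, all of them higher after MCAO. The members' median difference was -0.06 (log2), with 8 above 0 and 32 below, against 0.01 over all probe sets, of which 52.5% lay above 0. The 40S genes had a median of -0.08 (1 above 0, 11 below) and the 60S genes of -0.05 (7 above, 19 below). The genes below 0 numbered 38 of 40 after median centring, 22 under quantile scaling and 20 under cyclic loess, so the size of this majority depended on the scaling, and 18 genes changed sign under some scaling. The 2 MCAO arrays lay wholly below the 2 sham arrays for 14 genes and wholly above for 3, where 20.6% and 24.6% of all probe sets did. A limma p under 0.05 before adjustment was reached by 1 gene on the lower side, Rplp0, and 0 on the higher side, against 2.51% and 4.53% of all probe sets.

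Rplp0, the stalk protein that carries the P1 and P2 proteins and contacts elongation factors, gave signals of 16624 and 17059 for sham vehicle, 16468 and 14237 for sham candesartan, 13199 and 13787 for MCAO vehicle, and 15039.9 and 18292 for MCAO candesartan. Both MCAO vehicle arrays lay below every other array. The difference with vehicle was -0.31 ± 0.13 (log2, limma SE; adjusted p = 0.644), and it was -0.29 to -0.26 under quantile and loess scaling. Rps24 of the 40S subunit gave 31182 and 30311 for sham vehicle, 27324 and 29164 for sham candesartan, 25445 and 26396 for MCAO vehicle, and 32405 and 45274 for MCAO candesartan. Its MCAO vehicle arrays were also the lowest of the 8, and MCAO candesartan 2 the highest. With vehicle it differed by -0.24 ± 0.15 (limma adjusted p = 0.805). Rpl6 of the 60S subunit gave 37147 and 36276 for sham vehicle, 35022 and 37152 for sham candesartan, 32241 and 30949 for MCAO vehicle, and 35754 and 43669.7 for MCAO candesartan. The same arrays were lowest, and the difference was -0.21 ± 0.12 (limma adjusted p = 0.787). Rpl3, which reaches the peptidyl transferase centre, gave 51665 and 50531 for sham vehicle, 51445 and 49065 for sham candesartan, 44412 and 44615 for MCAO vehicle, and 50269 and 54381 for MCAO candesartan. Its MCAO vehicle arrays were the lowest pair and differed from sham vehicle by -0.20 ± 0.11 (limma adjusted p = 0.765). All 4 stayed below 0 for MCAO with vehicle under each scaling. In the other direction, Rpl39, a small protein lining the exit tunnel, gave 1653 and 2087 for sham vehicle, 2085 and 2236 for sham candesartan, 2212 and 2203 for MCAO vehicle, and 1869 and 2639 for MCAO candesartan. Both MCAO vehicle arrays were above both sham vehicle arrays. Its difference with vehicle was 0.21 ± 0.17 (limma adjusted p = 0.871), above 0 under each scaling. It was 0.07 without sham vehicle 1 and 0.35 without sham vehicle 2. Rpl37a had a difference of 0.10 ± 0.12 and stayed above 0 under each scaling, while Rpl21 had 0.06 ± 0.15 and -0.01 after median centring.

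**Figure D2:**
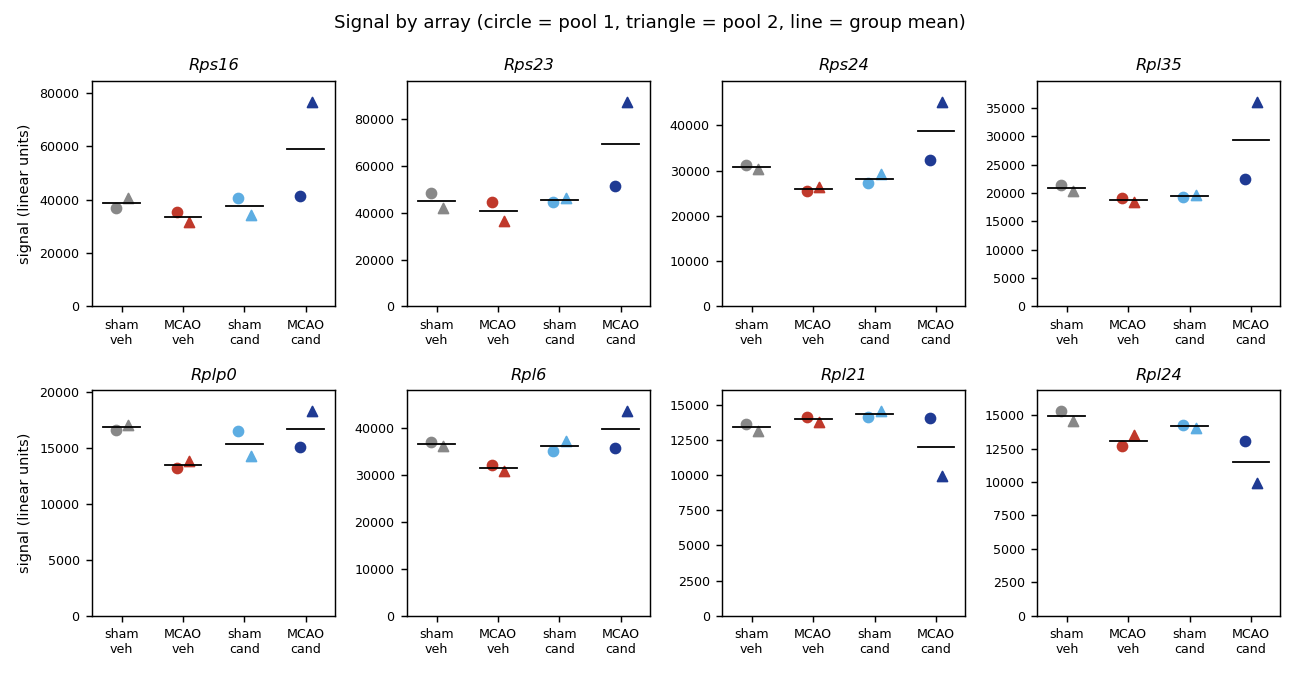
Signal on the vertical axis, from 0, by group for named ribosomal protein genes. Circles are pool 1, triangles pool 2 and lines group means. Rps16, Rps23, Rps24 and Rpl35 are highest on MCAO candesartan 2, and Rpl21 and Rpl24 lowest.

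After candesartan, most of the family had higher signals in MCAO than in sham at the deposited scaling, and again none passed the test. This comparison shares no array with the first. The limma fit called 0 of 40, where it called 0.242% of all probe sets. The median difference was 0.11 (34 above 0, 6 below), against -0.03 over all probe sets, of which 44.7% lay above 0. The 40S genes gave a median of 0.16 (12 above 0, 0 below) and the 60S genes 0.06 (20 above, 6 below). Under some scaling 18 of the 40 genes changed sign. The family's median turned to -0.04 under quantile scaling, with 17 of 40 above 0, and to -0.01 under cyclic loess, with 20 of 40 above. Without MCAO candesartan 2 it was 0.0629, with 25 of 40 above 0. The 40S median was then 0.14 (11 above 0, 1 below) and the 60S median -0.01 (13 above, 13 below). Without MCAO candesartan 1, which leaves MCAO candesartan 2 alone in its group, the family's median was 0.169, with 33 of 40 above 0. Before adjustment limma gave a p under 0.05 for 6 genes higher and 1 lower, against 5.5% and 6.92% of all probe sets, and without MCAO candesartan 2 for 0 either way, against 4.55% and 6.18%. The MCAO candesartan arrays lay wholly above the sham candesartan arrays for 17 genes and wholly below for 3, where 16.9% and 21.4% of all probe sets did.

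Rps16 of the 40S subunit gave signals of 36991 and 40467 for sham vehicle, 40645 and 34234 for sham candesartan, 35426 and 31605 for MCAO vehicle, and 41474 and 76684 for MCAO candesartan. MCAO candesartan 2 stood well above the other 7 arrays, and MCAO candesartan 1 only just above both sham candesartan arrays. The difference of MCAO from sham after candesartan was 0.59 ± 0.23 (limma adjusted p = 0.349), and without MCAO candesartan 2 it was 0.15. Rps23, which lies at the decoding centre, gave 48362 and 41964 for sham vehicle, 44686 and 46539.9 for sham candesartan, 44792 and 36712 for MCAO vehicle, and 51641 and 87598 for MCAO candesartan. Both MCAO candesartan arrays were the highest of the 8, MCAO candesartan 2 by far, and the difference was 0.56 ± 0.21 (limma adjusted p = 0.339), or 0.18 without that array. Rpl35, at the exit of the peptide tunnel, gave 21331 and 20337 for sham vehicle, 19289 and 19576 for sham candesartan, 19125 and 18484 for MCAO vehicle, and 22462 and 36127 for MCAO candesartan. Both MCAO candesartan arrays were above the other 6, and the difference was 0.54 ± 0.18 (limma adjusted p = 0.293), or 0.21 without the brighter one. Rps24, with the signals given above, differed by 0.44 ± 0.15 (limma adjusted p = 0.309), or 0.20 without it. These 4 stayed above 0 under each scaling.

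Some 60S genes went the other way in this comparison. Rpl24, part of a bridge between the subunits, gave 15321 and 14529.6 for sham vehicle, 14259.7 and 14074 for sham candesartan, 12704 and 13509 for MCAO vehicle, and 13059 and 9922 for MCAO candesartan. Both MCAO candesartan arrays were below both sham candesartan arrays, with a difference of -0.31 ± 0.13 (limma adjusted p = 0.387), or -0.11 without MCAO candesartan 2. Rpl21 gave 13634 and 13163 for sham vehicle, 14088 and 14555 for sham candesartan, 14146 and 13765 for MCAO vehicle, and 14032 and 9904 for MCAO candesartan. Only MCAO candesartan 2 was low, and the difference of -0.27 ± 0.15 (limma adjusted p = 0.487) was -0.03 without it. Both genes stayed below 0 for MCAO after candesartan under each scaling. Rpl14 differed by -0.10 ± 0.12 (limma adjusted p = 0.774), or -0.08 without that array.

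**Figure D3:**
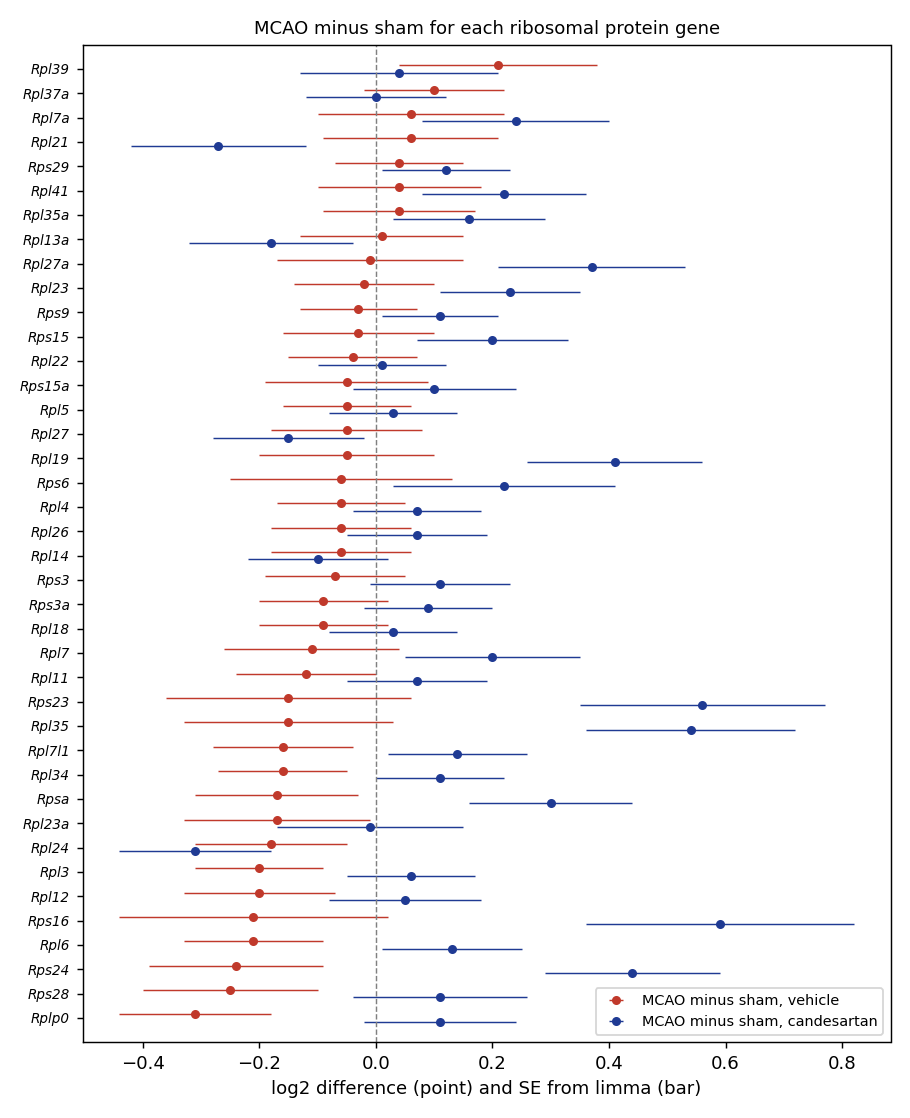
Log2 difference of MCAO from sham for each of the 40 genes, with its limma SE, after vehicle and after candesartan. With candesartan 34 points lie above 0 and with vehicle 8, at the deposited scaling. Under quantile scaling it was 17 and 18.

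The difference between the MCAO effects after candesartan and after vehicle asks whether pretreatment altered the response of the family. Limma called 0 of 40 genes for it, where 0.0194% of all probe sets were called. At the deposited scaling 28 genes lay below 0 with vehicle and above 0 with candesartan, 6 above in both, 4 below in both and 2 the reverse. The median of the difference was 0.18 (33 above 0, 7 below), against -0.05 over all probe sets (43.1% above 0), but it was -0.01 under both quantile scaling (18 above) and cyclic loess (19 above). Of the 40 genes, 19 changed sign under some scaling. Before adjustment, limma gave a p under 0.05 for 6 genes higher and 0 lower, against 3.5% and 5.36% of all probe sets. These 6 (Rps16, Rps23, Rpl35, Rps24, Rpsa and Rplp0) had differences of 0.80, 0.71, 0.69, 0.68, 0.47 and 0.43. Without MCAO candesartan 2 the differences were 0.36, 0.33, 0.35, 0.44, 0.25 and 0.29. Leaving out MCAO candesartan 2 gave a family median of 0.1271 (32 above 0, 8 below), and leaving out MCAO candesartan 1 gave 0.2702 (33 above, 7 below). Rps16 gave 0.80 ± 0.32 (limma adjusted p = 0.551) and 0.36 without MCAO candesartan 2. Rps24 had the smallest adjusted p of the family, with 0.68 ± 0.21 (limma adjusted p = 0.466), or 0.44 without that array. Rplp0 gave 0.43 ± 0.18 (limma adjusted p = 0.551) and 0.29 without it. These 3 genes stayed above 0 under each scaling.

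Among rats with MCAO, candesartan went with higher signals in most of the family. This comparison shares the MCAO vehicle arrays with that of MCAO vehicle against sham vehicle, and the MCAO candesartan arrays with the other. Limma called 0 of 40 genes, where 0.0679% of all probe sets were called, and the median difference was 0.23 (36 above 0, 4 below), against -0.03 over all probe sets (44.3% above 0). The MCAO candesartan arrays lay wholly above the MCAO vehicle arrays for 32 genes and wholly below for 0, where 18.0% and 23.8% of all probe sets did. Before adjustment, limma gave a p under 0.05 for 14 genes higher and 0 lower, against 5.43% and 7.68% of all probe sets, and without MCAO candesartan 2 for 6 higher and 0 lower, against 3.95% and 6.04%. The 40S genes had a median of 0.28 (12 above 0, 0 below) and the 60S genes 0.21 (22 above, 4 below). Under some scaling 11 of the 40 genes changed sign. The median stayed above 0 but was smaller under quantile scaling (0.07, 26 above 0) and cyclic loess (0.07, 26 above 0). It was 0.1487 without MCAO candesartan 2, with 37 of 40 above 0, and the subunits' medians were then 0.23 (40S, 12 above 0, 0 below) and 0.12 (60S, 23 above, 3 below). Without MCAO candesartan 1 the family's median was 0.263, with 35 of 40 above 0.

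Rps24 gave the smallest adjusted p of the family here (0.56 ± 0.15, limma adjusted p = 0.244), with both MCAO candesartan arrays above both MCAO vehicle arrays. Rps16 differed by 0.75 ± 0.23 (limma adjusted p = 0.260), Rps23 by 0.72 ± 0.21 (limma adjusted p = 0.251) and Rpl35 by 0.59 ± 0.18 (limma adjusted p = 0.257). Without MCAO candesartan 2 these 4 gave 0.32, 0.31, 0.35 and 0.25. All 4 were above 0 under each scaling. Rpl21 (-0.24 ± 0.15) and Rpl24 (-0.20 ± 0.13) lay below 0 under each scaling, and without MCAO candesartan 2 Rpl21 lay at 0.01 and Rpl24 at 0 to 2 decimals. Rps6, the target of the S6 kinases, gave 31936 and 31495 for sham vehicle, 33973 and 36144 for sham candesartan, 32202 and 28898 for MCAO vehicle, and 31798 and 52642 for MCAO candesartan. It was high on 1 array of the 8, and its difference of 0.42 was 0.06 without that array.

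After sham surgery, the differences between candesartan and vehicle were small and of both signs. Limma called 0 of 40 genes, where 0.0% of all probe sets were called, and before adjustment 0 had a limma p under 0.05 on either side, against 2.04% higher and 1.88% lower of all probe sets. The median difference was 0.02 (24 above 0, 16 below), against 0.01 over all probe sets (52.7% above 0), and it was -0.03 after median centring. The pools lay wholly apart for 11 genes higher and 6 lower with candesartan, where 18.9% and 14.9% of all probe sets did. Rpl37a gave 52610.1 and 55357 for sham vehicle, 59371 and 66194 for sham candesartan, 58456 and 56895 for MCAO vehicle, and 60193 and 65728 for MCAO candesartan, and both sham candesartan arrays were above both sham vehicle arrays. The difference was 0.21 ± 0.12 (limma adjusted p = 1.0). Rps15a differed by 0.21 ± 0.14 (0.01 to 0.41 over the arrays left out), Rps6 by 0.14 ± 0.19 and Rpl22 by 0.14 ± 0.11, each with non-overlapping pools. On the other side stood Rpsa (-0.14 ± 0.14), Rplp0 (-0.13 ± 0.13), Rps24 (-0.12 ± 0.15) and Rpl7l1 (-0.12 ± 0.12), with limma adjusted p of 1.0 for each. All 8 kept their sign under each scaling.

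**Figure D4:**
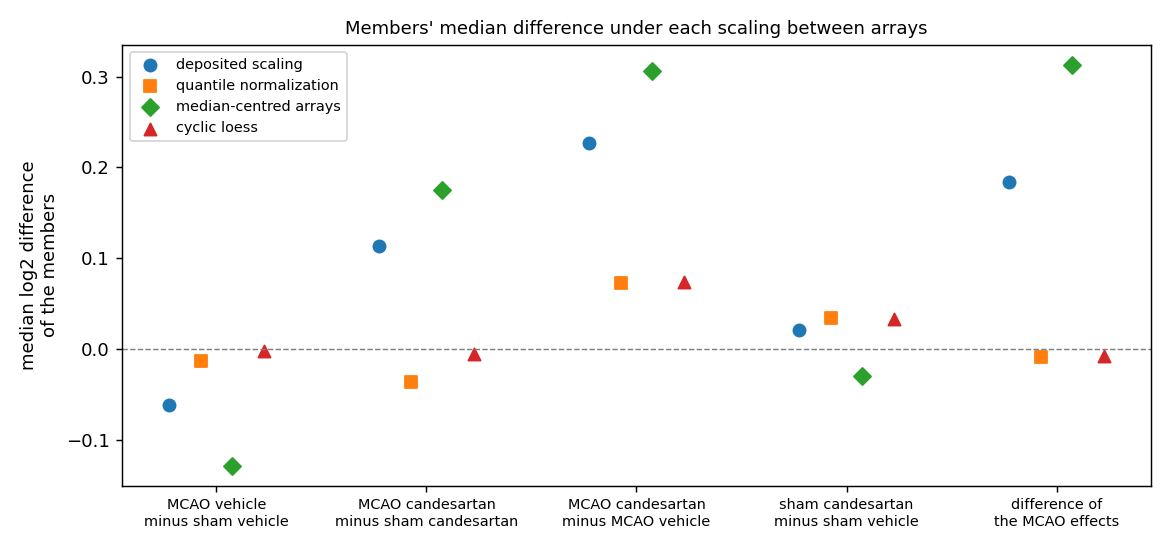
Median log2 difference of the 40 genes in each comparison, at the deposited scaling and under quantile, median-centred and cyclic loess scaling of the arrays. The medians of the comparisons with MCAO move most, and that of MCAO after candesartan and of the difference of the effects change sign under quantile and loess scaling.

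Some members were listed for well-known roles of their own. Rpl5, which carries the 5S RNA with Rpl11 and binds Mdm2, gave 31993 and 30396 for sham vehicle, 32495 and 32204 for sham candesartan, 31208 and 28928 for MCAO vehicle, and 34002 and 31946 for MCAO candesartan. Both MCAO candesartan arrays were above both MCAO vehicle arrays, but its sign depended on the scaling for MCAO with vehicle, for MCAO with candesartan and for candesartan after MCAO. Rpl11 gave 22262 and 22168 for sham vehicle, 23258 and 24181 for sham candesartan, 20052 and 20926 for MCAO vehicle, and 22787 and 27341 for MCAO candesartan. Its MCAO vehicle arrays were the lowest pair and differed from sham vehicle by -0.12. That sign held under each scaling. Candesartan after MCAO gave 0.28, or 0.13 and 0.12 under quantile and loess scaling and 0.15 without MCAO candesartan 2. Rps3, at the mRNA entry site, gave 20603 and 19528 for sham vehicle, 19687 and 21137 for sham candesartan, 20535 and 17825 for MCAO vehicle, and 22647 and 21310.0 for MCAO candesartan, with the MCAO candesartan arrays the highest pair. Rpl13a, a part of the complex that silences inflammatory transcripts, gave 19335 and 15901 for sham vehicle, 17532 and 19484 for sham candesartan, 17736 and 17527 for MCAO vehicle, and 18114 and 14584 for MCAO candesartan, so that the sham vehicle pools alone spanned most of the range of the other arrays. Rpl26, known to bind p53 mRNA, ranged from 42272 to 49254, and Rpl4 from 18424 to 20736. Rpl22 ranged from 14351 to 17114, and Rpl23, an Mdm2 binder, from 28043 to 37967 with its highest signal on MCAO candesartan 2. Limma called none of these 8 genes in any of the 5 comparisons.

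Of the 44 genes 5 had several probe sets, and Rpsa, the laminin receptor homologue of the 40S subunit, had 3, which disagreed. The probe set that stands for it gave 23228 and 22411 for sham vehicle, 20836 and 20550.3 for sham candesartan, 19187 and 21304 for MCAO vehicle, and 21856 and 29866 for MCAO candesartan. Candesartan after MCAO gave 0.33 ± 0.14 on it, -0.18 ± 0.11 on the _s_at probe set and -0.25 ± 0.15 on the _x_at probe set (limma). These were 0.11, -0.13 and -0.07 without MCAO candesartan 2. Probe sets of both types can bind related sequences. The 34 probe sets with several symbols, 1 or more a ribosomal protein name, were summarised at the deposited scaling only. They had a median of -0.09 for MCAO with vehicle (5 above 0, 29 below), 0.07 for MCAO with candesartan (22 above, 12 below) and 0.17 for candesartan after MCAO (27 above, 7 below). Leaving out MCAO candesartan 2, the last 2 medians were 0.06 (22 above, 12 below) and 0.14 (27 above, 7 below). Limma called 0 of them.

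**Figure D5:**
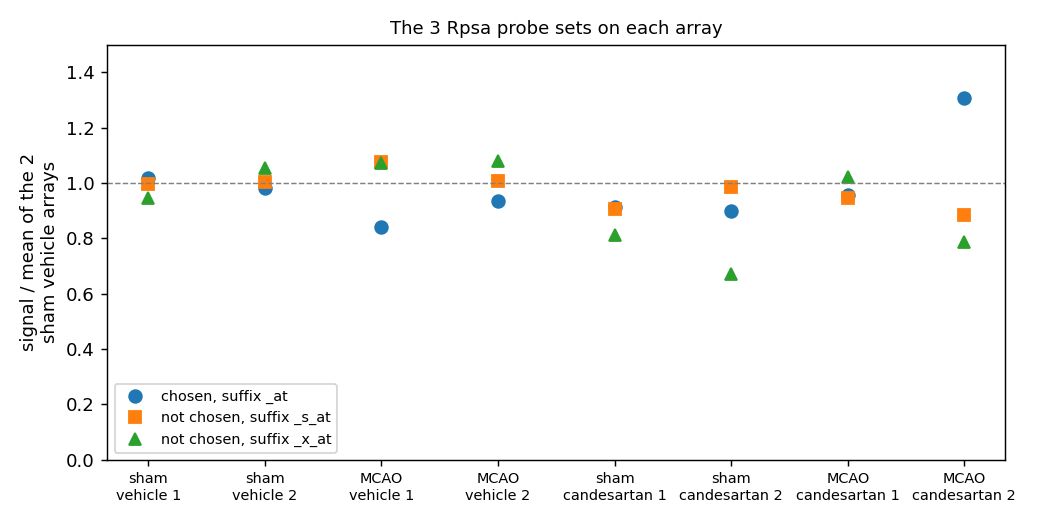
Signal of the 3 Rpsa probe sets on each array, divided by the mean of both sham vehicle arrays. On MCAO candesartan 2 the probe set that stands for the gene is above 1 and the other 2 are below it, at the deposited scaling.

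Other genes of translation were taken from lists. The values of all lists are at the deposited scaling and were not summarised under the other scalings. Of 14 translation factors and other genes with the same 5′ tract, limma called 0 in any comparison. Their medians were -0.07 for MCAO with vehicle (6 above 0, 8 below), 0.10 for MCAO with candesartan (9 above, 5 below) and 0.13 for candesartan after MCAO (9 above, 5 below). The last 2 were 0.07 and 0.12 without MCAO candesartan 2, each with 10 above and 4 below. Eef1a1, which brings aminoacyl-tRNA to the ribosome, gave 71605 and 70274 for sham vehicle, 69749 and 74025 for sham candesartan, 54071 and 56614 for MCAO vehicle, and 73786 and 89230 for MCAO candesartan. Its MCAO vehicle arrays were the lowest pair, with a difference of -0.36 ± 0.12 (limma adjusted p = 0.542), and candesartan after MCAO gave 0.55 ± 0.12 (limma adjusted p = 0.195), or 0.41 without MCAO candesartan 2. Eif4a2, a helicase of the cap complex, gave 0.61 ± 0.19 for candesartan after MCAO (limma adjusted p = 0.264), with 76648.5 on MCAO candesartan 2 and 38572 to 46211 on the others, and 0.25 without that array.

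The 60 tested genes of ribosome biogenesis had a median of 0.09 for MCAO with vehicle (40 above 0, 20 below), -0.01 for MCAO with candesartan (30 above, 30 below) and -0.08 for candesartan after MCAO (21 above, 39 below), and limma called 0 of them. Without MCAO candesartan 2 the last 2 were 0.01 (31 above, 29 below) and -0.02 (30 above, 30 below). Ddx56, a nucleolar helicase, gave 1450 and 1253 in MCAO vehicle and 652 and 592 in MCAO candesartan, -0.79 ± 0.18 (limma adjusted p = 0.195), or -0.75 without MCAO candesartan 2. Exosc1 of the RNA exosome gave 0.50 ± 0.18 and Brix1 of 60S assembly 0.42 ± 0.15 for MCAO with vehicle (limma adjusted p = 0.554 and 0.555). Rrp15 gave -0.91 ± 0.29 for MCAO with candesartan (limma adjusted p = 0.285), or -0.36 without MCAO candesartan 2. The 70 tested mitochondrial ribosomal protein genes had medians of -0.06 for MCAO with vehicle (28 above 0, 42 below), -0.02 for MCAO with candesartan (30 above, 40 below) and 0.03 for candesartan after MCAO (40 above, 30 below), with 0 called by limma. Without MCAO candesartan 2 the last 2 were 0.03 (40 above, 30 below) and 0.03 (42 above, 28 below). For MCAO with candesartan, Mrpl2 gave 0.76 ± 0.22 and Mrpl54 0.39 ± 0.11 (limma adjusted p = 0.242 and 0.249). Without MCAO candesartan 2 they gave 0.41 and 0.38. Of 26 tested genes of mTOR and S6 kinase control 0 were called, and their medians lay between -0.01 and 0.02 in the comparisons of a pair of groups. Without MCAO candesartan 2 their median was -0.0093 for MCAO with candesartan (12 above 0, 14 below). For candesartan after MCAO it was then 0.0001 (13 above, 13 below). Eef2k of this list gave -1.03 ± 0.32 for MCAO with candesartan (limma adjusted p = 0.279), or -0.44 without MCAO candesartan 2.

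Cell type markers were tabulated beside these values, also at the deposited scaling only. On the array, all 14 neuronal, 12 astrocytic and 10 oligodendrocytic markers passed the filter, so the tissue carried the markers of brain. The summed neuronal signal was 296668 to 321996 in sham vehicle, 297135 to 297783 in sham candesartan, 286689 to 300786 in MCAO vehicle, and 331022 to 370699 in MCAO candesartan. The neuronal median was -0.12 for MCAO with vehicle (3 above 0, 11 below), 0.10 for MCAO with candesartan (10 above, 4 below) and 0.11 for candesartan after MCAO (11 above, 3 below). Leaving out MCAO candesartan 2, the last 2 were 0.04 and 0.11. The astrocytic sum was 243780 to 248181 in sham vehicle, 234714 to 248355 in sham candesartan, 206912 to 218422 in MCAO vehicle and 202033 to 275070 in MCAO candesartan, and its median was -0.17 for MCAO with vehicle (0 above 0, 12 below), -0.15 for MCAO with candesartan (4 above, 8 below) and -0.01 for candesartan after MCAO (6 above, 6 below). Without MCAO candesartan 2 the last 2 were -0.33 (0 above, 12 below) and -0.15 (3 above, 9 below). The 10 oligodendrocytic markers had a median of 0.09 for MCAO with vehicle (8 above, 2 below), -0.12 for MCAO with candesartan (3 above, 7 below; -0.01 without that array) and -0.14 for candesartan after MCAO (4 above, 6 below; -0.08 without it). The 9 tested markers of microglia and macrophages had -0.04 (3 above, 6 below), -0.40 (1 above, 8 below; -0.37 without it) and -0.06 (3 above, 6 below; -0.21 without it) in the same order. The 5 of choroid plexus and ependyma had 0.13 (3 above, 2 below), -0.21 (0 above, 5 below; -0.23 without it) and -0.36 (0 above, 5 below; -0.25 without it). The 7 endothelial and mural markers had 0.01, 0.00 (-0.07 without it) and 0.07 (0.07 without it), and the 3 of blood cells 0.04, -0.32 (-0.36 without it) and -0.17 (-0.20 without it). Limma called 0 markers of any list, 0 markers on the array read 0 on all arrays of a group, and the part of cell makeup in the family's values was not tested.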

How the data were processed

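Total RNA of 8 pools was hybridised to 8 arrays. The deposited values were signal intensities on a linear scale in 1 table of the series, and GCOS was named per the submitters' processing notes, with no version given in the sources used here. The deposited scaling was kept. Of 15923 probe sets, 57 controls were left out. Differences are of log2(signal + 370), 370 being the 20th percentile of the deposited intensities, which understates the differences of dim genes. Only probe sets above a signal of 916 (40th percentile) on 2 or more arrays were tested, which left 10314. All 4 groups were fitted in limma 3.58.1 (R 4.3.3; group means, eBayes using trend, with 4 residual degrees of freedom), with Benjamini-Hochberg adjustment over 10314 probe sets in each comparison and a threshold of 0.05. The methods were tested on simulated data, for MCAO vehicle against sham vehicle. Changes of 1.5, 2 and 4 fold were called in 20.9%, 65.7% and 92.4% of cases, beside 7 false calls. The lack of calls in the family therefore says little about changes of 1.5 fold or less.

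Names came from the platform annotation, where 12783 probe sets had 1 symbol, 312 several and 2771 none. All 44 member symbols were in the RefSeq table, and promoters came from RefSeq (GRCr8). The members and lists were chosen with earlier results of these data known. Named members were those with the largest differences among pools that did not overlap (up to 4 a direction and comparison), 13 listed genes, and the 3 brightest and 3 dimmest. From other lists the rule gave called genes or else the 2 smallest p in each comparison, and the text gives some of these. The number of arrays limits the precision: with 2 pools against 2, an exact test of 1 gene cannot go below p = 0.333, so the p-values rest on limma's pooled spread. Alternatives covered scaling, offset, filter, variance model, array weights, groups fitted, probe set choice, a replicate block and each array left out.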

Additional observations from a re-analysis of the deposited data

How the results depend on the processing

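With 2 pools a group, limma called 0 of the 40 genes in each of the 5 comparisons under every alternative run except leaving out MCAO candesartan 1. Over the arrays left out, the count ran from 0 to 12 for MCAO after candesartan, from 0 to 16 for candesartan after MCAO and from 0 to 8 for the difference of the MCAO effects, and it was 0 for MCAO after vehicle and for candesartan after sham. Counts above 0 came only from the fit without MCAO candesartan 1, which leaves MCAO candesartan 2 alone in its group. The share of all tested probe sets called in that fit is not given here, so these counts do not set the family apart. The median difference at the deposited scaling was -0.0618 for MCAO with vehicle, and it became -0.1287 after median centring and -0.0024 under cyclic loess. For MCAO with candesartan it was 0.113, and became -0.0365 under quantile scaling, 0.1756 after median centring and -0.0061 under cyclic loess. For candesartan after MCAO it was 0.2269, and became 0.0722, 0.3063 and 0.0734 in the same order. For the difference of the effects it was 0.1838, and became -0.0086, 0.3132 and -0.0081. The cause of these moves was not tested. Leaving out each array gave -0.1247 (without sham vehicle 2) to -0.0291 (without sham vehicle 1) for MCAO with vehicle, 0.0629 to 0.169 for MCAO with candesartan, 0.1487 to 0.263 for candesartan after MCAO, 0.1271 to 0.2702 for the difference of the effects, and -0.0265 (without sham vehicle 2) to 0.0833 (without sham candesartan 1) for candesartan after sham. With the replicate block limma called 0 genes in each comparison. In this balanced design the block cannot move a difference, only its spread. Array weights were equal for both pools of each group (0.472 for each MCAO candesartan array), so they could not move a difference either. The pool numbers did not pair the samples (correlations of pool differences from -0.095 to 0.027). None of the named genes' values was called in the fit reported. Of their 2475 values under the alternatives, 124 changed sign, 51 of these when an array was left out. Many of the 2475 could not change sign. The filter, variance model, weights, block and arrays left out of other groups do not move a difference. The share that changed sign is therefore no measure of stability. Under the scalings alone, 11 to 19 of the 40 genes changed sign in a comparison. The fit on only the groups compared was not run for the difference of the effects, nor the mean of all probe sets for single genes.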
